A study of Homo sapiens with 4 samples.

Results

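The TNF superfamily comprises secreted or membrane-bound ligands that act as trimers and the receptors that bind them. Here it was taken as all protein-coding genes whose symbol begins with TNFRSF, which are the receptors, or TNFSF, with TNF, LTA and LTB, which are the ligands. The rule found 36 genes among the 58735 identifiers of the count table, 21 receptors and 15 ligands. RNA was sequenced from 4 libraries whose cells carry the label A549 (a line from a human lung adenocarcinoma), wild type and with no drug or cytokine named, grown in serum-containing medium and separated by flow cytometry on anti-ICAM1 staining. The ICAM1-high subset had 2 libraries and the ICAM1-low subset 2. Nothing in the labels ties the libraries to independent cultures. Each p-value below therefore reflects only how these libraries scatter, which may be technical.

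Receptors of this superfamily fall into groups by what lies inside the cell. Those with a death domain, such as TNFRSF1A and the TRAIL receptors TNFRSF10A and TNFRSF10B, can recruit FADD and caspases. Others recruit TRAF adaptors and feed the NF-kB and MAP kinase pathways, and decoy receptors bind a ligand without a full signalling tail. In epithelial tumour cells TNF signalling through NF-kB is a known inducer of ICAM1, a surface protein to which integrins of leukocytes adhere. Most ligands are best known from leukocytes, although several are also made by epithelial cells.

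Library totals lay between 16272591 and 17638647 counts. Levels are library-scaled counts per 1e6 counts (CPM), for which each library total was multiplied by its TMM factor. On that scale a floor of 3 counts corresponded to 0.161 to 0.195 CPM. ICAM1, the sorting marker, was at 115 and 110.2 CPM in ICAM1-high, against 4.60 and 4.88 CPM in ICAM1-low. CDKN2A, CDKN2B and MTAP, which lie in a region that A549 is known to lack, had 2223, 356 and 922 counts in the libraries labelled ICAM1-high, against 0, 0 and 9 counts in ICAM1-low. At these genes neither ICAM1-high library has the pattern known of A549, which goes against the label, and a difference between the subsets cannot be told apart from a difference between cells of unlike origin. In bulk samples, moreover, fewer cells of a type and less RNA per cell cannot be told apart. Leukocyte markers, 14 in all, summed to 32.0 and 30.4 CPM in ICAM1-high and to 20.7 and 22.2 CPM in ICAM1-low, and PTPRC, CD3D, CD3E, CD2, MS4A1 and FCGR3A were at 0 counts in every library. Marker calls stand beside a high background, since of all 16250 genes tested 30.4% were called higher and 29.4% lower. Of the 3 leukocyte markers tested, CD14 (686 counts in ICAM1-high, against 292 in ICAM1-low) and ITGAX (214 against 76) were higher and ITGAM (231 against 273) was lower. Endothelial markers summed to 52.1 and 56.9 CPM in ICAM1-high and to 37.0 and 40.3 CPM in ICAM1-low, with FLT1 at 0 throughout and VWF, KDR, TEK, TIE1 and ERG at 0 in ICAM1-low. EGFL7, which was not called, made up most of that sum in ICAM1-low, and of 6 endothelial markers tested 4 were higher and 1 lower. The higher ones were ENG (630 counts in ICAM1-high, against 108 in ICAM1-low), PECAM1 (133 against 26), ERG (89 against 0) and CDH5 (64 against 1), and the lower one was ESAM (118 against 148). Fibroblast markers summed to 78.1 and 89.3 CPM in ICAM1-high and to 47.4 and 50.3 CPM in ICAM1-low, with POSTN and DPT at 0 in every library and COL1A2 and COL3A1 at 0 in ICAM1-high. Of 7 fibroblast markers tested, 5 were higher and 0 lower, namely FBLN1, which carried most of the sum (1806 counts in ICAM1-high, against 1330 in ICAM1-low), COL1A1 (1056 against 126), LUM (99 against 8), FAP (42 against 1) and PDGFRB (26 against 5). ERG, CDH5, LUM, FAP and PDGFRB could be tested only because of their level in ICAM1-high, so their difference follows in part from that choice. Among markers abundant enough in both subsets, 2 of 4 endothelial ones were higher and 1 lower, and 2 of 2 fibroblast ones were higher. Of all genes abundant in both, 29.0% were called higher and 32.2% lower. The part of these markers in the results below was not tested.

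The comparison asked how mRNA of the receptors and ligands differs between cells with high and low surface ICAM1. The ligands TNFSF9, TNFSF10, TNFSF14 and TNFSF13B and the receptors TNFRSF1B and TNFRSF11B were 8.96-fold to 14.3-fold higher in ICAM1-high. In ICAM1-low, TNFSF14 and TNFRSF1B had only 12 counts each, and TNFSF13B and TNFRSF11B only 3 each. These low-count genes could be tested only because of their level in ICAM1-high, and their fold changes rest on few ICAM1-low counts. The abundant receptors TNFRSF12A, TNFRSF10B and TNFRSF10A were 2.60-fold, 2.50-fold and 2.08-fold lower, while TNFRSF1A and the decoy receptor TNFRSF10D were 1.33-fold and 1.47-fold higher. Of the 21 receptors, 15 passed the expression filter, of which 7 were higher and 5 lower (quasi-likelihood test of edgeR, p under 0.05 after Benjamini-Hochberg adjustment over all genes). Of the 15 ligands, 8 passed it, of which 6 were higher and 0 lower. The background is high, since 59.7% of all 16250 genes tested were called, 30.4% as higher and 29.4% as lower. Higher genes made up 50.8% of these calls, and 68.2% of the calls with scaling by library size alone. The filter keeps a gene that is abundant in a single subset, and 4 of the 15 receptors and 2 of the 8 ligands passed through ICAM1-high alone, so that their difference follows in part from the filter. Among the 11 receptors abundant enough in both subsets, 5 were higher and 5 lower, and among the 6 such ligands 4 were higher and 0 lower, while of all genes abundant in both 61.2% were called, 29.0% as higher and 32.2% as lower. The count of 0 lower ligands was also 0 at an unadjusted p under 0.05, with DESeq2 and with limma-voom, but was 1 without ICAM1-high replicate 1 and 1 without ICAM1-low replicate 2. Over the genes abundant in both subsets, the median log2 fold change was 0.02 for the 11 receptors and 1.63 for the 6 ligands, beside -0.02 for all such genes. Whether receptors and ligands differ from each other was not tested.

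**Figure D1:**
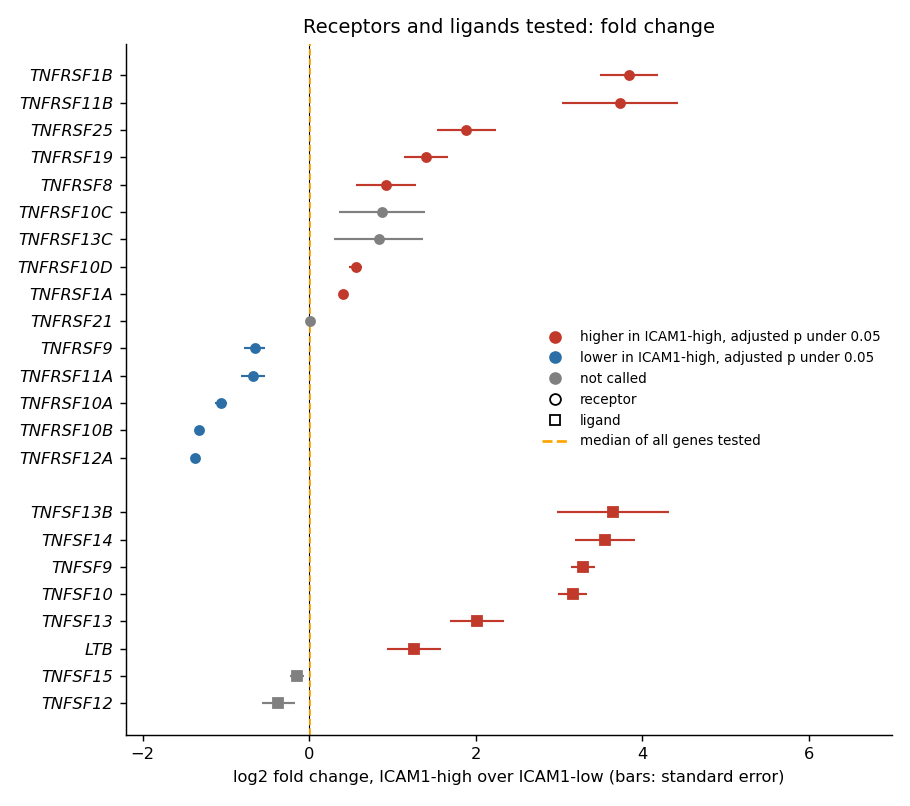
Log2 fold change (horizontal axis, ICAM1-high over ICAM1-low, with its standard error) of the 15 receptors and 8 ligands that passed the expression filter. Receptors lie on both sides of 0, from TNFRSF1B at 3.84 to TNFRSF12A at -1.38, and the 6 called ligands all lie above 1, with TNFSF15 and TNFSF12 just below 0.

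The TRAIL receptors are encoded side by side on chromosome 8 and differ in their intracellular parts. TNFRSF10A and TNFRSF10B carry death domains, TNFRSF10D has a truncated one and TNFRSF10C is attached to the membrane by a lipid anchor. TNFRSF10B (ENSG00000120889, chromosome 8, 23020133 to 23069179, GRCh38) was at 247 and 233 CPM in ICAM1-high and at 598 and 603 CPM in ICAM1-low. The subsets did not overlap, and the log2 fold change was -1.32 (SE 0.04, edgeR adjusted p = 1.69e-39). TNFRSF10A was at 31.8 and 33.8 CPM in ICAM1-high and at 69.9 and 66.6 CPM in ICAM1-low (log2 fold change -1.06, SE 0.07, edgeR adjusted p = 3.48e-21). TNFRSF10D moved the other way, with 55.5 and 53.3 CPM in ICAM1-high and 36.1 and 38.0 CPM in ICAM1-low (log2 fold change 0.56, SE 0.07, edgeR adjusted p = 9.17e-10). Both death receptors were thus lower, and the receptor with the truncated tail higher, in each ICAM1-high library than in either ICAM1-low library. TNFRSF10C was near the detection limit, with 18 and 15 counts in ICAM1-high, against 10 and 5 counts in ICAM1-low, and did not pass the test (log2 fold change 0.87, SE 0.52, edgeR adjusted p = 0.144). Its exons overlap other annotated genes and it is a close paralogue of TNFRSF10D, so its reads are uncertain. TNFRSF10A overlaps the opposite-strand genes TNFRSF10A-AS1 and TNFRSF10A-DT, which had 150 and 140 counts in ICAM1-high, against 218 and 144 counts in ICAM1-low.

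Ratios of counts within a library do not depend on how libraries are scaled. Relative to the TNFRSF10B counts of the same library, TNFRSF10D had 22.5% and 22.9% in ICAM1-high and 6.04% and 6.30% in ICAM1-low. TNFRSF10A changed far less against TNFRSF10B, at 12.8% and 14.5% in ICAM1-high and 11.7% and 11.0% in ICAM1-low. Set against TNFRSF10A, TNFRSF10D had 175% and 158% of its counts in ICAM1-high and 51.6% and 57.0% in ICAM1-low. In the same cluster, RHOBTB2, which overlaps 67 exon bases of TNFRSF10B on the opposite strand, was higher in ICAM1-high (log2 fold change 0.56, SE 0.10). Of the nearest tested genes outside it, BIN3 did not pass the test (0.12, SE 0.11) and CHMP7 was slightly lower (-0.17, SE 0.07). Protein, and the amount of receptor at the surface, were not measured.

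The TNF receptors proper are TNFRSF1A, which is expressed broadly and carries a death domain, and TNFRSF1B, which lacks one and is known mainly from leukocytes and endothelium. TNFRSF1A (ENSG00000067182, chromosome 12, 6328757 to 6342114) was at 366 and 376 CPM in ICAM1-high and at 285 and 274 CPM in ICAM1-low. Its libraries did not overlap, and the log2 fold change was small but exceeded their spread (0.41, SE 0.04, edgeR adjusted p = 1.89e-13). TNFRSF1B (ENSG00000028137, chromosome 1) was at 6.32 and 4.95 CPM in ICAM1-high, from 118 and 91 counts, and at 0.383 and 0.391 CPM in ICAM1-low, from 6 counts in each library. That is a log2 fold change of 3.84 (SE 0.35, edgeR adjusted p = 1.46e-15). TNFRSF1B passed the filter through ICAM1-high alone. Even there it had only 1.73% and 1.32% of the counts of TNFRSF1A, against 0.134% and 0.143% in ICAM1-low.

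TNFRSF12A, also called Fn14, is the receptor for TNFSF12 (TWEAK) and lacks a death domain. It was at 111 and 109 CPM in ICAM1-high and at 289 and 282 CPM in ICAM1-low, with a log2 fold change of -1.38 (SE 0.05, edgeR adjusted p = 3.22e-37). TNFRSF12A had 30.2% and 29.1% as many counts as TNFRSF1A in ICAM1-high, and 101% and 103% as many in ICAM1-low. Its ligand gene TNFSF12 was at 4.07 and 5.11 CPM in ICAM1-high and at 6.39 and 5.47 CPM in ICAM1-low and did not pass the test (log2 fold change -0.37, 95% interval -0.76 to 0.02, edgeR adjusted p = 0.1002). TNFSF12 shares 29.4% of its exon bases with the readthrough gene TNFSF12-TNFSF13, so its reads are uncertain. TNFRSF21, or death receptor 6, was at 116 and 107 CPM in ICAM1-high and at 113 and 108 CPM in ICAM1-low. The subsets overlapped, and the 95% interval of its log2 fold change ran from -0.09 to 0.12 (edgeR adjusted p = 0.828). Scaling by library size alone moved all genes up by 0.17 in the median, and TNFRSF21 then stood at 0.19 and was called (edgeR adjusted p = 0.00195).

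**Figure D2:**
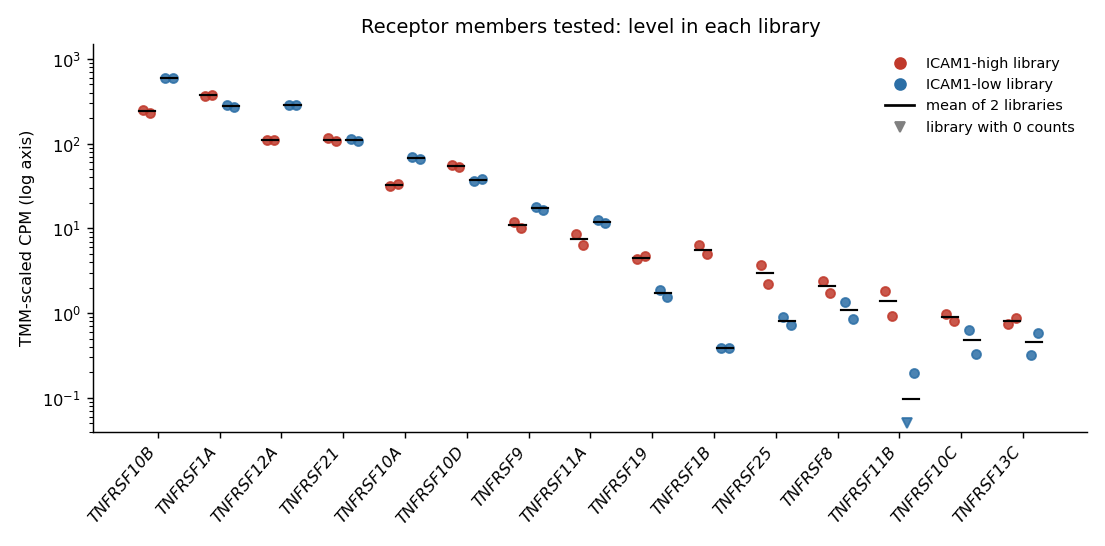
Level of each receptor that passed the expression filter, in library-scaled CPM on a log axis, with a point for each library and a bar at the mean of 2 libraries. TNFRSF10B, TNFRSF12A and TNFRSF10A lie lower in ICAM1-high, TNFRSF1A and TNFRSF10D slightly higher, and TNFRSF1B at 5.63 against 0.387 CPM on average.

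Among the less abundant receptors, TNFRSF9 and TNFRSF11A were lower in ICAM1-high. TNFRSF9, or 4-1BB, a costimulatory receptor of T cells and the receptor for TNFSF9, was at 11.9 and 10.1 CPM in ICAM1-high and at 18.1 and 16.6 CPM in ICAM1-low (log2 fold change -0.66, SE 0.12, edgeR adjusted p = 4.20e-06). TNFRSF11A, or RANK, known from osteoclast and mammary development, was at 8.68 and 6.36 CPM in ICAM1-high and at 12.5 and 11.6 CPM in ICAM1-low (-0.68, SE 0.15, edgeR adjusted p = 7.02e-05). In both genes the libraries of one subset lay wholly apart from those of the other. TNFRSF19, or TROY, a receptor of the nervous system and of epithelial progenitors, was at 4.39 and 4.67 CPM in ICAM1-high and at 1.85 and 1.56 CPM in ICAM1-low (1.40, SE 0.26, edgeR adjusted p = 4.73e-06). TNFRSF25, or death receptor 3, which binds TNFSF15, was at 3.75 and 2.23 CPM in ICAM1-high and at 0.894 and 0.716 CPM in ICAM1-low (1.88, SE 0.35, edgeR adjusted p = 4.47e-06). Exons of TNFRSF25 overlap those of PLEKHG5 and ESPN, which had 406 and 39 counts in ICAM1-high, against 124 and 7 counts in ICAM1-low, so part of its reads may be theirs.

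TNFRSF8, or CD30, known from activated lymphocytes, was at 2.41 and 1.74 CPM in ICAM1-high and at 1.34 and 0.846 CPM in ICAM1-low. It passed the test narrowly (log2 fold change 0.92, SE 0.36, edgeR adjusted p = 0.0239). That call was lost with DESeq2 (adjusted p = 0.154) and in edgeR when ICAM1-high replicate 1 (adjusted p = 0.262) or, in turn, ICAM1-low replicate 2 (adjusted p = 0.229) was left out. TNFRSF11B, or osteoprotegerin, a soluble decoy for TNFSF11 and TRAIL, had 34 and 17 counts in ICAM1-high, against 0 and 3 counts in ICAM1-low, a ratio of 14.2 with a 95% counting interval of 4.60 to 71.3, and was called higher (edgeR adjusted p = 5.24e-06). It passed the filter through ICAM1-high alone, and its fitted log2 fold change was 2.76 without ICAM1-low replicate 1 and 7.60 without ICAM1-low replicate 2, where the subset then has 0 counts and the fitted value is no bound. TNFRSF14, or HVEM, the receptor for TNFSF14, had 18 and 10 counts in ICAM1-high, against 2 and 1 counts in ICAM1-low, a ratio of 7.81 (95% counting interval 2.41 to 40.2), and did not pass the expression filter. Such intervals are exact binomial ones and cover counting error only. TNFRSF13C, the BAFF receptor of B cells, was at 0.750 and 0.870 CPM in ICAM1-high and at 0.319 and 0.586 CPM in ICAM1-low and did not pass the test (0.83, SE 0.54, edgeR adjusted p = 0.180). Below these, TNFRSF18 (GITR) and TNFRSF4 (OX40) had 5 and 2 counts in ICAM1-high, and TNFRSF18 had 2 and TNFRSF4 had 0 counts in ICAM1-low. TNFRSF13B, TNFRSF17 and TNFRSF6B had 0 counts in all 4 libraries. For TNFRSF6B this need not mean absent mRNA, because the whole of its exons lies within the readthrough gene RTEL1-TNFRSF6B, which had 249 counts in ICAM1-high, against 139 in ICAM1-low.

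Per kilobase of exon, the scale on which genes can be set against each other, the order of the receptors differed between the subsets. In ICAM1-high the order of mean levels ran from TNFRSF1A at 92.6 ± 1.67 CPM per kb (SD, n = 2) through TNFRSF12A at 59.5 ± 0.535, TNFRSF10B at 46.5 ± 2.0, TNFRSF21 at 31.1 ± 1.83 and TNFRSF10D at 15.4 ± 0.454 to TNFRSF10A at 11.1 ± 0.478. In ICAM1-low it ran from TNFRSF12A at 154.5 ± 2.46 CPM per kb (SD, n = 2) through TNFRSF10B at 116 ± 0.718, TNFRSF1A at 69.8 ± 2.06, TNFRSF21 at 30.8 ± 0.870 and TNFRSF10A at 23.1 ± 0.794 to TNFRSF10D at 10.5 ± 0.376. Neighbours in both orders lay further apart than the spread of their libraries. All others of the 21 receptors were under 3 CPM per kb in both subsets. Superfamily receptors under other symbols lie outside this order. Among them, LTBR, the lymphotoxin beta receptor, was at 41.0 CPM per kb in ICAM1-high and 42.5 in ICAM1-low, and FAS at 4.86 and 1.97. Out of the summed level per kb of all 21 receptors, TNFRSF1A made up 34.3% and 35.9% in ICAM1-high, against 17.2% and 16.8% in ICAM1-low. TNFRSF12A made up 22.5% and 22.7% in ICAM1-high and 37.7% and 37.6% in ICAM1-low. These shares are of mRNA as counted and depend on the annotated exon lengths.

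**Figure D3:**
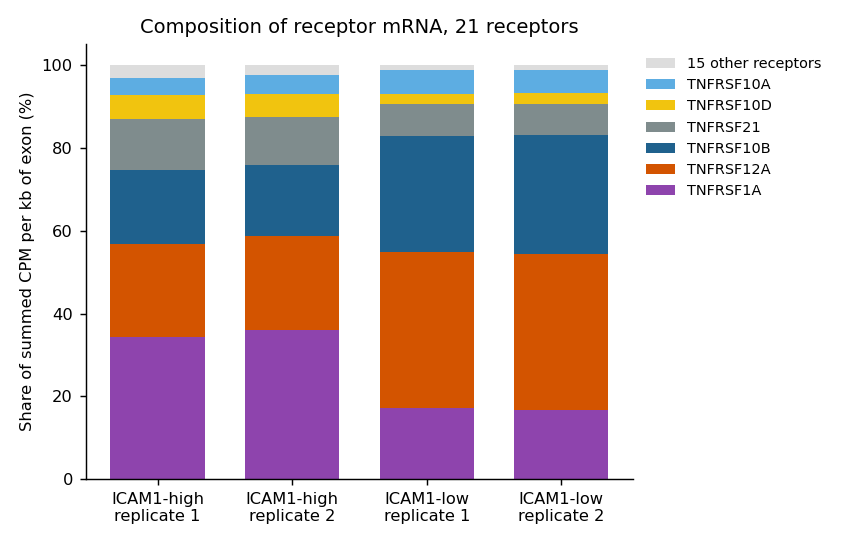
Share of each receptor in the summed CPM per kb of exon of all 21 receptors (vertical axis, percent), with a bar for each of the 4 libraries. TNFRSF1A is the largest part in both ICAM1-high libraries and TNFRSF12A in both ICAM1-low libraries, and the part of TNFRSF10B is 17.98% and 17.3% in ICAM1-high and 27.96% and 28.7% in ICAM1-low.

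Among the ligands, TNFSF9, TNFSF10 and TNFSF14 carried the clearest difference. TNFSF9, or 4-1BB ligand, a costimulator of T cells (ENSG00000125657, chromosome 19, 6530999 to 6535928), was at 30.8 and 30.4 CPM in ICAM1-high and at 3.64 and 2.60 CPM in ICAM1-low. This log2 fold change of 3.29 (SE 0.14, edgeR adjusted p = 1.16e-31) had no overlap of libraries, while its receptor TNFRSF9 was lower in the same libraries. TNFSF10, which encodes TRAIL, the death-inducing ligand of the TNFRSF10 receptors (ENSG00000121858, chromosome 3), was at 18.5 and 17.99 CPM in ICAM1-high and at 1.92 and 2.15 CPM in ICAM1-low (3.16, SE 0.17, edgeR adjusted p = 6.51e-26). TRAIL mRNA was thus higher in the subset in which TNFRSF10A and TNFRSF10B were lower, with 7.496% and 7.73% as many counts as TNFRSF10B in ICAM1-high and 0.321% and 0.356% in ICAM1-low. TNFSF14, or LIGHT, which binds HVEM and the lymphotoxin beta receptor (ENSG00000125735, chromosome 19, 6661253 to 6670588), was at 4.71 and 4.51 CPM in ICAM1-high and at 0.383 and 0.391 CPM in ICAM1-low (3.55, SE 0.36, edgeR adjusted p = 1.21e-13). The last gene passed the filter through ICAM1-high alone, with 6 counts in each ICAM1-low library.

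The promoter windows of these 3 ligand genes and of TNFRSF1B are shown because these genes had some of the largest fold changes among the members, and they were chosen after their values were seen. They are from RefSeq on GRCh38.p14, 250 bases before to 50 after the annotated start, 5′ to 3′ on the gene's strand. TNFSF14 has 2 windows there, of which the first listed is shown. Capitals mark matches, on either strand, to 4 motifs. These are TTTC and TTTC with any 2 bases between them (the core of the interferon-stimulated response element, ISRE), TGANTCA (AP-1), GGG and TTCC with any 3 bases between them (an NF-kB type motif) and GGGCGG (GC box).
TNFSF9, chr19:6530776-6531075, plus strand: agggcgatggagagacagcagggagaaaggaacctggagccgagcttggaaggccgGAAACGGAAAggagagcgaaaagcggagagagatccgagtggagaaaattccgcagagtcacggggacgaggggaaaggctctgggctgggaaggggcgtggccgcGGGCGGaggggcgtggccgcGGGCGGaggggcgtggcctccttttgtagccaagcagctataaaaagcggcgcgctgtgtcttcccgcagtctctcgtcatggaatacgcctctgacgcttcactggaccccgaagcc
TNFSF10, chr3:172523381-172523680, minus strand: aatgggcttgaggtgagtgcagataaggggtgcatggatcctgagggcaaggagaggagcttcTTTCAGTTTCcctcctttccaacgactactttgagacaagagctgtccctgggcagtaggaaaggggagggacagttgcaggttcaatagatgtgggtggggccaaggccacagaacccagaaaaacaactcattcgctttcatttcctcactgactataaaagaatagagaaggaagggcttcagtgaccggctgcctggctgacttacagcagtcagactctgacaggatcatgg
TNFSF14, chr19:6670111-6670410, minus strand: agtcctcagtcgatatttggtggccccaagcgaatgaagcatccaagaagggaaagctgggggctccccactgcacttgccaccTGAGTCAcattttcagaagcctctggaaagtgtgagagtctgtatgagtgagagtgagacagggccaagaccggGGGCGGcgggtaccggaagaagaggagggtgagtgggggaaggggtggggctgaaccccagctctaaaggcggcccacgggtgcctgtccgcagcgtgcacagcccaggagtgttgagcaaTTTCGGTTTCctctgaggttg
TNFRSF1B, chr1:12166741-12167040, plus strand: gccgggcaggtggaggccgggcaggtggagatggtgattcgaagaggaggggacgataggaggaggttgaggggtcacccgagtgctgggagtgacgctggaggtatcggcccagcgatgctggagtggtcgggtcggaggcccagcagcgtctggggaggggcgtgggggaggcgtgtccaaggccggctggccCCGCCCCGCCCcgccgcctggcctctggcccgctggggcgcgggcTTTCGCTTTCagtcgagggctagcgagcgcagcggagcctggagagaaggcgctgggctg
All 4 windows hold the ISRE letters, at -194 to -185 from the start in TNFSF9, at -187 to -178 in TNFSF10, at 30 to 39 in TNFSF14 and at -10 to -1 in TNFRSF1B. GC boxes were found in TNFSF9, TNFSF14 and TNFRSF1B, where a pair of matches overlap, and AP-1 letters in TNFSF14. The NF-kB letters were in none of these 4 windows.

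A RefSeq window was at hand for 24 of the 36 members, and 5 of these 24 held the ISRE letters, against 3.65% of all 27305 promoter windows. The fifth was that of TNFSF13B, and TNFRSF1B, TNFSF14 and TNFSF13B among the 5 met the expression filter only by their ICAM1-high counts. The NF-kB letters, present in 6.47% of all windows, were in those of TNFRSF9 and LTB. AP-1 letters (7.76% of all windows) were in 4 and GC boxes (44.6%) in 13 of the 24. The 27305 windows were not limited to protein-coding genes, as the members are, so these shares are not a like background. Among protein-coding genes tested with a window, GC boxes were in 7454 and absent from 3275. In the same genes AP-1 letters were in 501 and absent from 10228. Over all protein-coding genes tested with a window, 48.0% of the 304 with the ISRE letters were called higher in ICAM1-high, against 33.2% of the 10425 without them, and 23.7% against 32.3% were called lower. The shares called higher with and without a match were 32.3% and 33.7% for the NF-kB letters, 31.9% and 33.7% for the AP-1 letters, and 33.8% and 33.3% for the GC box. These shares include genes that passed the filter through ICAM1-high alone, so they may follow in part from the filter. They were not taken over the genes abundant in both subsets, and they were not tested. The motifs were chosen after the fold changes were known, and a match describes letters in a window, not a bound factor.

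TNFSF13B (BAFF) and TNFSF13 (APRIL), survival factors for B cells, were also higher in ICAM1-high. TNFSF13 was at 3.43 and 3.64 CPM in ICAM1-high and at 0.702 and 1.04 CPM in ICAM1-low (log2 fold change 2.01, SE 0.32, edgeR adjusted p = 1.74e-07). It shares 55.5% of its exon bases with the readthrough gene TNFSF12-TNFSF13, to which a single count was assigned in all, and how reads on these bases were treated is not given in the sources used here. TNFSF13B had 23 and 25 counts in ICAM1-high, against 2 and 1 counts in ICAM1-low, a ratio of 13.4 (95% counting interval 4.32 to 67.2), and was called higher (edgeR adjusted p = 3.36e-06). The receptors of these 2 ligands, TNFRSF13B and TNFRSF17, were at 0 counts, and TNFRSF13C was under 1 CPM in every library. LTB, lymphotoxin beta, which signals as a membrane trimer with lymphotoxin alpha, was at 2.95 and 2.61 CPM in ICAM1-high and at 1.47 and 0.846 CPM in ICAM1-low (1.255, SE 0.33, edgeR adjusted p = 0.000673). LTA had 7 and 3 counts in ICAM1-high and 2 in each ICAM1-low library, and was not tested.

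TNF itself, the ligand of TNFRSF1A and TNFRSF1B, had 8 and 12 counts in ICAM1-high, against 8 and 3 counts in ICAM1-low. These values overlapped, lay close to the floor and did not pass the expression filter, so a difference in TNF mRNA was not detectable at this depth. TNFSF15 (TL1A), known from endothelium, was at 38.1 and 33.2 CPM in ICAM1-high and at 43.0 and 35.9 CPM in ICAM1-low. Its subsets overlapped (log2 fold change -0.15, 95% interval -0.31 to 0.02, edgeR adjusted p = 0.123). Without ICAM1-high replicate 1 or ICAM1-low replicate 2 it was called lower (edgeR adjusted p = 0.00906 and 0.0178), and with scaling by library size alone its sign turned (0.02, adjusted p = 0.823). The remaining ligands were barely counted. TNFSF4 (OX40 ligand) had 12 counts in ICAM1-high, against 3 in ICAM1-low, TNFSF8 (CD30 ligand) 13 and 14, TNFSF18 (GITR ligand) 5 and 1, and TNFSF11 (RANK ligand) 0 and 2.

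**Figure D4:**
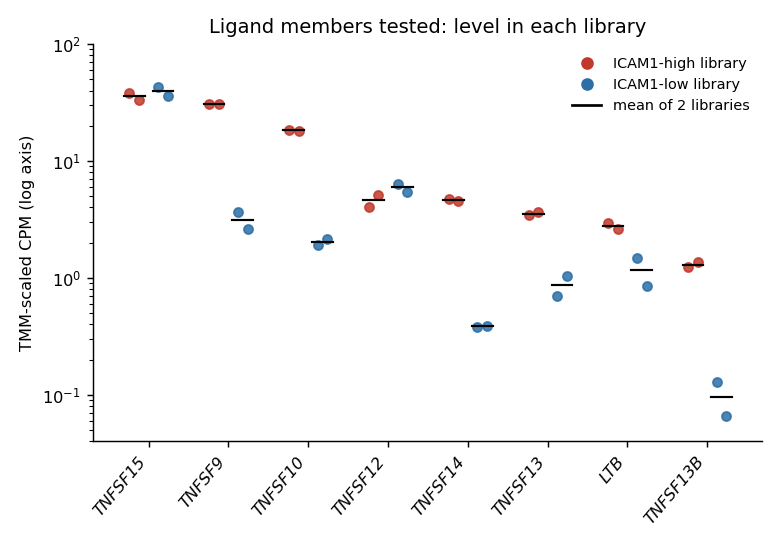
Level of each ligand that passed the expression filter, in library-scaled CPM on a log axis, with a point for each library and a bar at the mean of 2 libraries. TNFSF9, TNFSF10, TNFSF14, TNFSF13, LTB and TNFSF13B lie higher in both ICAM1-high libraries, and the libraries of TNFSF15 overlap.

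Per kilobase of exon, TNFSF9 led the ligands in ICAM1-high at 18.4 ± 0.175 CPM per kb (SD, n = 2), followed by TNFSF10 at 5.26 ± 0.110 and TNFSF15 at 4.52 ± 0.441. In ICAM1-low the order began with TNFSF15 at 5.01 ± 0.636 CPM per kb (SD, n = 2), TNFSF12 at 3.15 ± 0.345 and TNFSF9 at 1.88 ± 0.440, with TNFSF10 at 0.585 ± 0.0474. CD70, a ligand outside the symbol rule and these orders, was at 8.52 CPM per kb in ICAM1-high and 1.70 in ICAM1-low. Each ligand stayed below the level per kb of TNFRSF1A, TNFRSF10B, TNFRSF12A and TNFRSF21 in both subsets. Counted over all members, receptor mRNA summed to 969.9 and 945 CPM in ICAM1-high and 1427 and 1405 CPM in ICAM1-low, and ligand mRNA to 105 and 100.4 CPM in ICAM1-high and 59.1 and 49.4 CPM in ICAM1-low. These sums weigh long and abundant transcripts most, and they were not tested.

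TNFSF9 and TNFSF14 are neighbours on chromosome 19, with CD70, a further superfamily ligand under another symbol and a costimulator of T cells, between them. CD70 (6583183 to 6604103) was at 13.2 and 12.9 CPM in ICAM1-high and at 2.75 and 2.47 CPM in ICAM1-low (log2 fold change 2.32, SE 0.18, edgeR adjusted p = 1.97e-18). TNFSF14 could be tested only because of its level in ICAM1-high. All 3 ligand genes of this stretch were higher in ICAM1-high, as were 30.4% of all genes tested. The next tested gene on either side was higher too, TUBB4A, a tubulin gene, by 2.17 (SE 0.20) and C3, the central complement component, by 1.55 (SE 0.04). Beyond these, DENND1C (-0.40, SE 0.22, adjusted p = 0.114) did not pass the edgeR test and GPR108 was lower (-0.25, SE 0.07). In the LTA, TNF and LTB cluster on chromosome 6, only LTB could be tested. LTA had 10 counts in ICAM1-high, against 4 in ICAM1-low, and TNF 20 against 11. Both were near the floor, so whether that cluster shares a difference could not be told. TNFRSF1A on chromosome 12 has LTBR close by, which was at 248 and 267 CPM in ICAM1-high and at 269 and 266 CPM in ICAM1-low (-0.05, SE 0.04, edgeR adjusted p = 0.290).

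Of 12 superfamily genes that carry other symbols, 8 were tested, of which 5 were higher and 1 was lower, and 7 were abundant in both subsets. Of these 7, 4 were higher and 1 lower, where 29.0% and 32.2% of all such genes were, and their median log2 fold change was 0.31. FAS, the death receptor for FAS ligand, was at 21.3 and 20.1 CPM in ICAM1-high and at 7.85 and 8.92 CPM in ICAM1-low (1.30, SE 0.12, edgeR adjusted p = 1.11e-14). Of the receptors introduced above with a death domain or as death receptors, FAS, TNFRSF1A and TNFRSF25 were thus higher in ICAM1-high. TNFRSF10A and TNFRSF10B were lower in the same libraries, and TNFRSF21 was not called. NGFR, the low-affinity neurotrophin receptor, rose by 2.19 (SE 0.39) and passed the filter through ICAM1-high alone. EDA, the ectodysplasin ligand, rose by 1.49 (SE 0.31), whereas EDA2R, a receptor for one of its forms, fell by 0.70 (SE 0.11). CD40, a receptor of B cells and of inflamed epithelium, was at 6.53 and 4.95 CPM in ICAM1-high and at 4.21 and 5.08 CPM in ICAM1-low, and these values overlapped (adjusted p = 0.185 in edgeR). FASLG and CD40LG were at 0 counts in every library.

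Inside the cell, all 28 adaptors and proximal signalling genes were abundant enough to test in both subsets, with 8 higher, 12 lower and a median of -0.13, where 29.0% of all genes abundant in both were higher and 32.2% lower. TRAF2, the adaptor that links TNFRSF1A and TNFRSF12A to NF-kB, was at 51.9 and 55.2 CPM in ICAM1-high and at 97.9 and 110.4 CPM in ICAM1-low (log2 fold change -0.96, SE 0.06, edgeR adjusted p = 1.07e-21). TANK, a TRAF-binding protein, fell by 0.81 (SE 0.07) and the ubiquitin ligase gene BIRC2 by 0.77 (SE 0.07). The linear ubiquitin ligase complex was uneven. RBCK1, its HOIL-1 subunit, was at 154 and 167 CPM in ICAM1-high and at 445 and 453 CPM in ICAM1-low (-1.48, SE 0.04, edgeR adjusted p = 9.16e-41), its catalytic subunit gene RNF31 rose by 0.87 (SE 0.11), and SHARPIN did not pass the test (0.04, SE 0.09). TNFAIP3, which encodes the feedback inhibitor A20, was at 111 and 101 CPM in ICAM1-high and at 70.0 and 74.4 CPM in ICAM1-low (0.56, SE 0.06, edgeR adjusted p = 8.08e-13). OTULIN, which removes linear ubiquitin, rose by 0.53 (SE 0.08) and TRAF7 by 0.40 (SE 0.05).

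Downstream of the death receptors, 10 of 11 genes were tested, with 2 higher, 3 lower and a median of 0.02, which is no larger a share in either direction than over all genes abundant in both subsets (29.0% and 32.2%). CASP8, the initiator caspase, was at 67.0 and 67.7 CPM in ICAM1-high and at 65.3 and 63.4 CPM in ICAM1-low and did not pass the test (0.07, SE 0.06, edgeR adjusted p = 0.387), nor did its adaptor gene FADD (-0.01, SE 0.12). CFLAR, which encodes the caspase-8 inhibitor cFLIP, was at 85.8 and 84.7 CPM in ICAM1-high and at 130 and 129 CPM in ICAM1-low (-0.60, SE 0.05, edgeR adjusted p = 1.68e-15). XIAP, an inhibitor of apoptosis, fell by 0.46 (SE 0.06). MLKL, the effector of necroptosis, rose by 0.39 (SE 0.08), while RIPK3, its kinase, was at 0 counts in all 4 libraries.

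Among 8 genes that cut or release ligands, 3 were higher and 4 lower. Of the 7 abundant in both subsets, 2 were higher and 4 lower, with 29.0% and 32.2% over all such genes. ADAM17, the protease that sheds TNF and its receptors, was at 85.5 and 78.5 CPM in ICAM1-high and at 150 and 151 CPM in ICAM1-low (log2 fold change -0.88, SE 0.05, edgeR adjusted p = 4.58e-23). RHBDF1 and RHBDF2, which escort ADAM17 to the surface, fell by 0.41 (SE 0.09) and by 0.19 (SE 0.06), and SPPL2A, which cleaves the membrane stub of TNF, fell by 0.67 (SE 0.06). TIMP3, an inhibitor of ADAM17, had 93 counts in ICAM1-high, against 8 in ICAM1-low, and passed the filter through ICAM1-high alone (3.25, SE 0.48). FURIN, which processes several ligands such as TNFSF13, rose by 0.20 (SE 0.05), and SPPL2B by 0.40 (SE 0.08). ADAM10 did not pass the test (-0.03, SE 0.04).

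**Figure D5:**
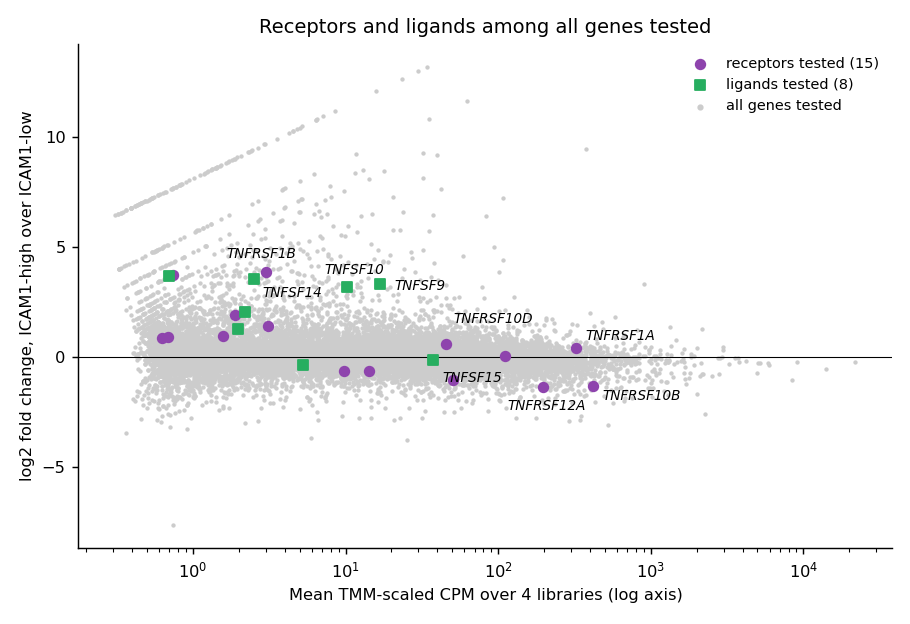
Log2 fold change (vertical axis, ICAM1-high over ICAM1-low) against mean library-scaled CPM over 4 libraries (log axis) for all 16250 genes tested, with the 15 receptors and 8 ligands in colour. The abundant receptors TNFRSF10B and TNFRSF12A lie below 0, and TNFRSF1B, TNFRSF11B, TNFSF9, TNFSF10, TNFSF13B and TNFSF14 lie above 3 among many other genes with large rises.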

How the data were processed

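RNA-seq counts of 4 libraries were used, 2 from ICAM1-high and 2 from ICAM1-low cells. The authors deposited raw counts per gene in 1 table, and each column was matched to its sample by description. FastQC 0.10.1 and GRCh38 are named in the submitters' processing notes; for the aligner, counter, strand setting and multiply mapped reads, the sources used here give nothing. All 58735 identifiers were in GENCODE release 29, from which positions, gene types and exon lengths (union of exons) came, and 58207 had a symbol.

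All genes were compared with edgeR 4.0.16 in R 4.3.3 (quasi-likelihood, robust, TMM factors of 0.940 to 1.07, minimum count 10, minimum total 15), with Benjamini-Hochberg adjustment over 16250 genes and calls at adjusted p under 0.05. The SE is the log2 fold change divided by the root of the F statistic. The test was also run on counts simulated with a common dispersion and few changed genes. These settings differ from the data, so that run does not measure the error rates of the calls here. The members, lists and naming rule (every tested member, untested ones with at least 10 counts, up to 4 genes per direction in other lists) were chosen with earlier results of these data known. CD40, LTBR, SHARPIN, CASP8, FADD, ADAM10, members under 10 counts, the genes at 0 counts and the chromosomal neighbours lie outside that rule and were named after their values were seen. Alternatives used other scalings, filters, thresholds, DESeq2 1.42.0, limma-voom (limma 3.58.1), the replicate number as a block, and omission of each library. Libraries of a subset differed by more than sampling noise (chi-square per degree of freedom 2.88 in ICAM1-high and 1.82 in ICAM1-low). Some genes of the other lists that the naming rule covers are not reported here.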

Additional observations from a re-analysis of the deposited data

How the results depend on the processing

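Of 264 log2 fold changes of tested members under 12 alternative fits, 254 kept their direction and their side of the threshold, 3 lost a call (all TNFRSF8), 3 gained one and 4 turned their sign without a call. Members removed by a filter gave no value. With a mean of at least 1 CPM, 19 of the 23 tested members had a value. With genes under 1 CPM in ICAM1-low left out, 15 had one, and TNFRSF1B, TNFRSF11B, TNFSF14 and TNFSF13B were among those removed. TNFRSF21 stood at -0.0058 with no filter on low counts, between -0.053 and 0.071 with single libraries left out (-0.053 without ICAM1-high replicate 1, -0.023 without ICAM1-low replicate 2), and TNFSF15 at 0.024 with scaling by library size only. Lower ligands numbered 0 to 1 when single libraries were left out, the 1 being TNFSF15, and lower genes of the superfamily under other symbols 1 to 2. With genes under 1 CPM in ICAM1-low left out, an alternative chosen after seeing the data, 10 receptors and 5 ligands were tested. Of these, 4 receptors and 3 ligands were higher, and 5 receptors and 0 ligands lower. Calls over all genes in that fit numbered 8753, of which 50.4% were higher. In the main fit, a demand for at least a 1.5-fold difference left 5 higher and 5 lower receptors and 6 higher ligands. TNFRSF1A and TNFRSF10D were then no longer among the higher receptors. The same demand left 2 higher and 6 lower adaptor genes, 0 higher and 1 lower death branch genes, and 1 higher and 2 lower ligand processing genes. The share of all genes that meet it was not taken. At 2-fold or more, 10.8% of all 16250 genes tested were higher and 4.71% lower. Of the 15 receptors 4 were then higher and 3 lower, and of the 8 ligands 6 were higher and 0 lower. With library size only, 5 death branch genes were higher, and 68.2% of all calls were higher ones in place of 50.8%. With the replicate number as a block, 7 receptors were higher, 5 lower and 6 ligands higher, as without it. The deviations of same-numbered libraries correlated at 0.038 over 11213 genes, so the numbers were not taken as pairs. Where 1 library was left in a subset, its spread was taken from the other subset. Members under about 10 counts in a library cannot show small differences at this depth.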
